A study of Mus musculus with 16 samples.

Results

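Nascent transcription of the 9 genes that encode the core and the main accessory subunits of Polycomb repressive complex 2 (PRC2), Ezh2, Ezh1, Eed, Suz12, Rbbp4, Jarid2, Aebp2, Mtf2 and Phf19, was measured in the mouse embryonic stem cell line F121-9 and in clones edited from it. The genes were chosen by name, as the widest row of each symbol in the deposited table, and they are 9 of the 24978 gene symbols and 25 of the 42491 gene rows. All 9 reached the mean of 0.2 CPM (reads per 1000000 assigned to a copy, averaged over both copies) over the 16 libraries that each of the 14094 tested genes had to reach. F121-9 is a hybrid that carries 1 Mus musculus castaneus (cast) and 1 129 copy of each autosome, and each read that covered a variant base had been assigned to 1 of the copies, so every gene had a 129 and a cast value per library. In Bru-seq, cells take up bromouridine for a short pulse, here 30 min at 2 mM, and the labelled RNA is captured and sequenced, so the values report RNA made during the pulse, introns included. Of the edited groups, c.del, ab.del and abc.del had 2 libraries each, and ac.del, bc.del, a.del, b.del, 4k.b.c, 100kdel, 245kdel and 680kinv had 1 each, beside 2 libraries of F121-9. The names give the lettered sites or the stretch that was deleted or inverted. All groups share the F121-9 background and, per the labels' protocols, a medium with 2i and LIF, which keeps stem cells undifferentiated. The labels do not state where the sites lie or which copy carries the edit. Titles of edited libraries in 1 group end in different suffixes, whose meaning the labels do not give. The 2 c.del libraries had X chromosome reads mostly from different copies, 129 in the first and cast in the second, so they are not technical repeats. Whether the other pairs came from separate cultures or clones is not stated. The p-values therefore cover only the spread among these libraries, which may be technical outside c.del. The table holds extra segments for Dppa2, Dppa4 and Morc1 on chromosome 16, and 0 of the 9 PRC2 genes lie on that chromosome.

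Library depth over genes was 8.96 M to 32.05 M reads (M, 1000000; median 16.4 M), and 3 reads corresponded to 0.0833 to 0.329 CPM. Summed values of 8 pluripotency markers were 1569.5 to 2213 CPM, against at most 2.79 CPM for 4 primitive endoderm markers, 1.17 CPM for 3 trophoblast markers and 0.766 CPM for 4 fibroblast markers. Across genes, the 4 pairs of libraries that share a group had r between 0.951 and 0.978, whereas 100kdel and 245kdel, which differ in group, had 0.989. The sample numbers form 2 runs of 8 libraries, called deposit blocks here, whose meaning the labels do not state. Both F121-9 and both abc.del libraries are in the first block, and ab.del and c.del have 1 library in each. These are bulk samples, in which fewer cells of a type and less RNA per cell cannot be told apart.

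PRC2 places methyl groups on lysine of histone H3 (the H3K27 mark) and thereby keeps developmental genes silent. Ezh2 and Ezh1 are alternative catalytic subunits, Suz12 is the scaffold, Eed binds the finished mark and stimulates the enzyme, and Rbbp4 is a histone-binding protein shared with other chromatin complexes. Accessory subunits define 2 forms of the complex: 1 carries a Polycomb-like protein such as Mtf2 or Phf19, which binds CpG-rich DNA, and the other carries Jarid2, which helps to recruit the complex, together with Aebp2, a zinc finger protein. In embryonic stem cells Ezh2, Eed, Suz12, Jarid2 and Mtf2 are known to be abundant, and the cells survive without PRC2 but differentiate poorly.

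The start regions of 6 transcripts are shown for the catalytic pair Ezh2 and Ezh1, for the members with the highest and the lowest level per kb, Suz12 and Phf19, and for both starts of Mtf2, which the reads before and after the inner start can be set against. They come from RefSeq, build GRCm38.p6 (mm10), and span 250 bases before to 50 bases after the start, 5′ to 3′ on the strand of the gene. Capitals mark letters of the kind that E2F factors bind, searched as TTTCCCGC, TTTGGCGC and TTTCGCGC on both strands; where Phf19 holds the first of these on the other strand, it reads GCGGGAAA. Among 32851 promoter windows of the same length, 1.07%, 0.514% and 0.323% held these 3 motifs in that order, and the windows overlap where starts are close. Suz12 and Phf19 held the first, Ezh2 held the second, and the other members' windows held none of these letters.
Ezh2, chr6:47594981-47595280, minus strand: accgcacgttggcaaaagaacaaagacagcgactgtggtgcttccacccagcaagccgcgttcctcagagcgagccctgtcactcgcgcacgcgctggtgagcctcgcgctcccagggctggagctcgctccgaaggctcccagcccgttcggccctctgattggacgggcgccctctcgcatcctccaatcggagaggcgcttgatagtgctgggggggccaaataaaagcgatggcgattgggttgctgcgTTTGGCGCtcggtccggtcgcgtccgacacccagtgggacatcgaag
Ezh1, chr11:101226414-101226713, minus strand: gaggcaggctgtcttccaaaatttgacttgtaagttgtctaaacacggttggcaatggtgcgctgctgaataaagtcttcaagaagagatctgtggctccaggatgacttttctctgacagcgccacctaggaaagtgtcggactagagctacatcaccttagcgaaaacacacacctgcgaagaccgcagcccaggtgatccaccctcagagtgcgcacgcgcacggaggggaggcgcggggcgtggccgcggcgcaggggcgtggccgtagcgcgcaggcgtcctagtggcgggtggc
Suz12, chr11:79992856-79993155, plus strand: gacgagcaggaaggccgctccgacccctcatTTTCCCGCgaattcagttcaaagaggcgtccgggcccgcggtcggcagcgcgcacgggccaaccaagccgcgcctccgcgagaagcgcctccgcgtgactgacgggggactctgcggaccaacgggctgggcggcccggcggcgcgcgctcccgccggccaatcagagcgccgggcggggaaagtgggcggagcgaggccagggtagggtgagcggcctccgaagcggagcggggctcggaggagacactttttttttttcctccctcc
Phf19, chr2:34913927-34914226, minus strand: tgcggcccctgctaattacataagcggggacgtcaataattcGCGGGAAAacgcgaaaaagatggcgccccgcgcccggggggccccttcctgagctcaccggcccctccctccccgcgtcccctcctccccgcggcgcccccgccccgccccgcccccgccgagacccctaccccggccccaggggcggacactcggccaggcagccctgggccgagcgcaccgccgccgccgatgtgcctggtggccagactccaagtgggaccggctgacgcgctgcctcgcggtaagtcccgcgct
Mtf2 outer start, chr5:108065424-108065723, plus strand: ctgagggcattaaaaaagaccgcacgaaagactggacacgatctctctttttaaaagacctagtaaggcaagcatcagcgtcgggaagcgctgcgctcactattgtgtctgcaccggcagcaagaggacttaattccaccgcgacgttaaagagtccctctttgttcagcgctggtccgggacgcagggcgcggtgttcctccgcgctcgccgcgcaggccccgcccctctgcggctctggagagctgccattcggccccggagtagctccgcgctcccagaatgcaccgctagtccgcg
Mtf2 inner start, chr5:108077915-108078214, plus strand: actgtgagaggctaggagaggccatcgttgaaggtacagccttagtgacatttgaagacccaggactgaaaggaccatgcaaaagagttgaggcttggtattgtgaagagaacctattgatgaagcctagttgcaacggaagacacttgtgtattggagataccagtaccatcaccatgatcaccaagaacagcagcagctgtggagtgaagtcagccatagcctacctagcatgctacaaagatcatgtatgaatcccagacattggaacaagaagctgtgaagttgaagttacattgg

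Each of the 9 members had at least 1 window rich in CpG pairs, the letters that unmethylated promoters keep. Suz12 had 41 CpG pairs in its 300 bases, Rbbp4 39, Phf19 38, Ezh2 31, the outer start of Mtf2 30, Jarid2 24 and 23 at its 2 starts, Ezh1 23, and Eed 17, against a median of 7 over all windows. Aebp2 had 21 at 1 start and 4 at each of 2 others, and the inner start of Mtf2 had 2. The order of CpG counts was not the order of CPM per kb: Phf19, with 38, gave the lowest level of the 9 and Eed, with 17, was among the 3 highest.

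Levels were compared between genes per kb of gene, on which scale the 9 fell into 3 tiers. Only reads over a variant base were counted, so CPM per kb also depends on how densely a gene or stretch carries variants between 129 and cast, whose part in the differences between genes and stretches was not tested. The highest tier, with means between 6.34 and 11.7 CPM per kb, held the scaffold Suz12, the reader Eed and the accessory genes Mtf2 and Jarid2. Ezh2, Rbbp4 and Aebp2 followed with 3.89, 3.08 and 1.98 CPM per kb, and Ezh1 and Phf19 were far lower with 0.347 and 0.0505 CPM per kb. Neighbours in this order overlapped in their ranges over the 16 libraries down to Aebp2. On the narrowest of its rows in the table Aebp2 gave 3.15 CPM per kb, above Rbbp4, so the order of these 2 depends on the row. Aebp2 was above Ezh1, and Ezh1 above Phf19, in 16 of 16 libraries without overlap.

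**Figure D1:**
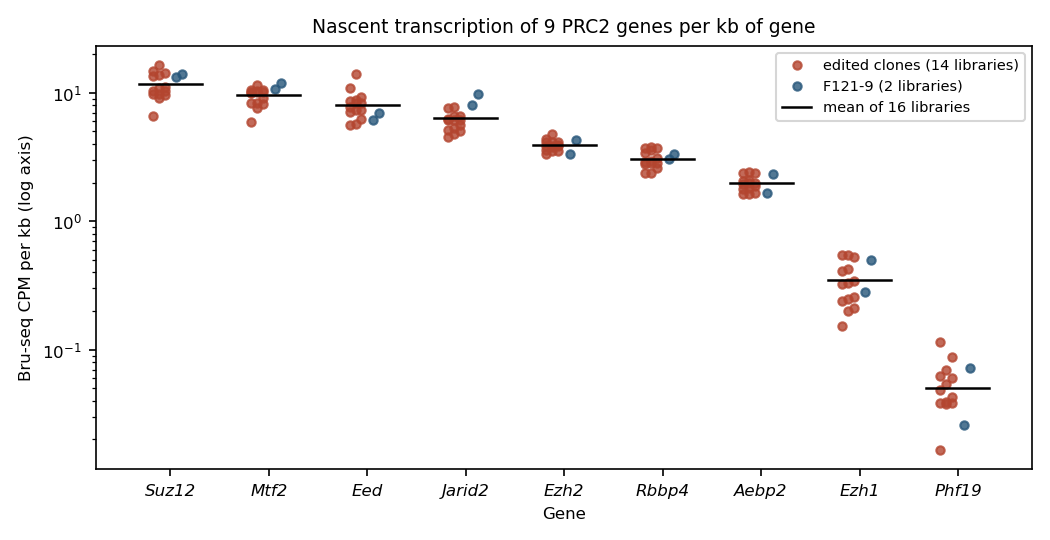
CPM per kb of gene (log axis, mean of the 129 and cast copies) of the 9 PRC2 genes, 1 point per library for the 14 edited libraries and the 2 F121-9 libraries, with a line at the mean of all 16. Suz12 to Aebp2 lie between means of 11.7 and 1.98 CPM per kb, and Ezh1 and Phf19 lie below them; the b.del library, with 0 reads of Phf19, cannot be drawn on a log axis.

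Ezh2 at chr6:47530274-47595030 (minus strand) gave 252 ± 26.0 CPM (SD, n = 16 libraries). Its level ran from 215 through a median of 248 to 312 CPM in the 14 edited libraries, against 279.8 and 215 CPM in F121-9, so the F121-9 libraries spanned most of the edited range. Ezh1 at chr11:101191115-101226463 (minus strand) gave 12.3 ± 4.65 CPM. The Ezh1 values were 5.44, 11.6 and 19.5 CPM at the lowest, the median and the highest edited library, against 9.91 and 17.7 CPM in F121-9, again overlapping. Per kb, Ezh2 exceeded Ezh1 in every library, by a ratio of 6.47 in 680kinv at the least, 12.2 at the median and 26.8 in b.del at the most. The 2 F121-9 libraries alone gave 15.4 and 6.62, so this ratio varied as widely within the unedited line as over much of the edited range.

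Of the other core genes, Suz12 at chr11:79993106-80034123 (plus strand) gave 481 ± 108 CPM, with 271, 436 and 678 CPM as the lowest, median and highest edited values, against 543 and 578 CPM in F121-9. The highest value was in abc.del 1 and the lowest in a.del, and the groups overlapped. Eed at chr7:89954654-89980976 (minus strand) gave 211 ± 55.8 CPM, with 149, 212 and 369 CPM in the edited libraries, against 183 and 162 CPM in F121-9. The 4k.b.c library was the highest for Eed. Rbbp4 at chr4:129307100-129335370 (minus strand) gave 87.1 ± 13.0 CPM, with 67.1, 82.0 and 106 CPM in the edited libraries, against 93.8 and 85.6 CPM in F121-9. It was the only member whose span overlapped a gene of the opposite strand, Sync, which gave 0.988 CPM, and no member overlapped a gene of its own strand. Per kb, Ezh2 was below Eed and below Suz12 in each of the 16 libraries, with median ratios of 0.515 (range 0.253 to 0.679) and 0.353 (0.232 to 0.582).

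Of the accessory genes, Jarid2 at chr13:44730774-44921643 (plus strand), the longest of the 9 at 190.87 kb, gave 1210.5 ± 263 CPM and ranked 3 among all tested genes by CPM, a rank that its length helps to set. Aebp2 at chr6:140623502-140678472 (plus strand) gave 109 ± 15.2 CPM, with 89.2, 107 and 133 CPM in the edited libraries, against 127 and 91.2 CPM in F121-9. Per kb, Jarid2 exceeded Aebp2, its partner in 1 form of the complex, by 1.95 in ac.del to 4.86 in the second F121-9 library (median 3.11). Its log2 ratio averaged 1.67, and 1.00 on the narrowest row of Aebp2. Mtf2 at chr5:108065674-108109219 (plus strand) gave 418 ± 68.2 CPM, with 256, 437 and 502 CPM in the edited libraries, against 468 and 517 CPM in F121-9. Phf19 at chr2:34893755-34913976 (minus strand) gave 1.02 ± 0.557 CPM, a total of 597 reads over 16 libraries. Its edited values ran from 0 in b.del through 0.924 to 2.30 CPM in 680kinv, against 0.526 and 1.45 CPM in F121-9. Between these alternative Polycomb-like genes, Mtf2 exceeded Phf19 per kb by 93.0 to 694, with a median of 192, in the 15 libraries in which Phf19 had reads.

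Nested rows of the table allowed 3 members to be split. Upstream of the inner start of Mtf2 lay 12.491 kb with 11.6 ± 2.72 CPM per kb (SD, n = 16), and the 31.055 kb after it had 8.79 ± 1.41 CPM per kb, so nascent RNA already covered the stretch between the CpG-rich outer start and the CpG-poor inner start printed above. In Aebp2 the last 22.991 kb, which only the wider row includes, gave 0.600 ± 0.1502 CPM per kb, against 2.96 ± 0.399 in the 31.98 kb before them, without overlap between the ranges of 0.284 to 0.821 and 2.40 to 3.64. The first 0.497 kb of Jarid2, between its 2 starts, gave 0.370 ± 0.313 CPM per kb and the rest of the gene 6.36 ± 1.38. That short stretch held a mean of only 0.184 CPM, where 3 reads are 0.0833 to 0.329 CPM, so its level rests on few reads.

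The members differed in how much they varied between libraries. Ezh2 had an SD of 0.15 on the log2(CPM + 0.1) scale, and 97.8% of the 14094 tested genes had a larger one; Aebp2 (0.20), Rbbp4 (0.22), Mtf2 (0.26) and Jarid2 (0.30) followed. Suz12 and Eed stood at 0.34 each, Ezh1 at 0.56 and Phf19 at 1.05. The median was 0.51 over all tested genes and 0.27 over the 2592 genes of at least 50 CPM, so Ezh2, Aebp2, Rbbp4 and Mtf2 varied less than the median gene of like level, and Jarid2, Suz12 and Eed more. Between the 2 F121-9 libraries alone (first minus second), Phf19 differed by -1.31, Ezh1 by -0.83, Aebp2 by 0.48 and Ezh2 by 0.38, against a median absolute difference of 0.30 over all genes. The other 5 members differed by at most 0.27 in size.

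The 9 members did not all move together over the libraries. Of the 36 pairs of members, 24 had a positive and 12 a negative Pearson r over the 16 libraries, given as a description since the libraries share 1 parental line; the median r was 0.09. The closest pairs were Ezh1 with Phf19 (0.77), Suz12 with Rbbp4 (0.76) and Suz12 with Mtf2 (0.71), and the most opposed was Ezh1 with Eed (-0.68). Without 4k.b.c, over 15 libraries, these became 0.81, 0.75, 0.76 and -0.65. By rank (Spearman rho, 16 libraries) Suz12 with Mtf2 gave 0.50, below Jarid2 with Mtf2 (0.56). Ezh1, Suz12, Rbbp4 and Eed also differed between the deposit blocks, as given below, and the part of the blocks in these r was not tested. Ezh2 had r = 0.08 with Eed and -0.14 with Suz12, its obligate partners. Among 10840 autosomal genes of at least 1 CPM, the patterns most like that of Ezh2 were those of Ctnnal1 (0.80), Rab10 (0.75) and Maml1 (0.75). For Eed these were Spp1 (0.92), Ppp2r2d (0.88) and Epc1 (0.88), which gave 0.88, 0.82 and 0.83 without 4k.b.c, and for Suz12 they were Idh2 (0.92), Deptor (0.91) and Nhsl1 (0.90).

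**Figure D2:**
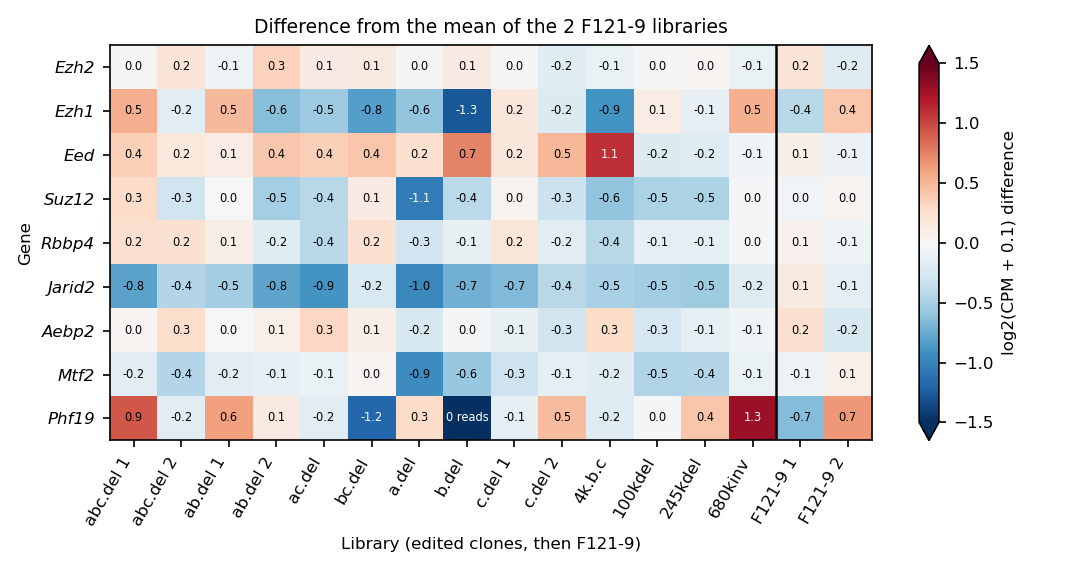
Difference of each library from the mean of the 2 F121-9 libraries on the log2(CPM + 0.1) scale, for the 9 PRC2 genes (rows) and 16 libraries (columns, F121-9 at the right of the line); colours stop at 1.5 in either direction, and the b.del cell of Phf19 marks 0 reads. The Jarid2 row is below 0 in all 14 edited libraries, and the Ezh2 row stays near 0.

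The first comparisons asked whether deletion of lettered sites changed transcription of PRC2 genes relative to the parental line. Jarid2 was the member that stood out: each of the 14 edited libraries lay below both F121-9 libraries, as in 0.745% of all tested genes. The abc.del libraries gave 967 and 1249.7 CPM, against 1854 and 1539 CPM for the F121-9 libraries. Values of 1178 and 980.0 CPM in ab.del and of 1072 and 1267 CPM in c.del were likewise below those of F121-9, without overlap. The share of 0.745% refers to all 14 edited libraries. How many tested genes separate in this way within a single group was not counted, and each group was set against the same F121-9 libraries. The Jarid2 differences in abc.del, ab.del and c.del did not pass the test. By limma on 8 libraries, with an adjusted p of 0.05 over 14094 genes, Jarid2 differed by -0.62 (SE 0.20, adjusted p = 0.314) in abc.del, by -0.65 (SE 0.20, adjusted p = 0.437) in ab.del and by -0.54 (SE 0.20, adjusted p = 0.482) in c.del.

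By this test 0 of the 9 members were called in abc.del, where 0.22% of all tested genes were called, and 0 of 9 in ab.del and in c.del, where the share was 0.0497% each. This background depends on the model: with deposit block as a covariate 671, 202 and 207 of all tested genes were called in abc.del, ab.del and c.del, and on autosomes alone 6, 0 and 0, with 0 members in each case. At an unadjusted p of 0.05, 1 of 9 members, Jarid2, passed in each of the 3, against 10.3%, 7.8% and 9.44% of all tested genes. Both edgeR and DESeq2 on the recovered reads also called 0 of 9. The other 8 members had adjusted p of 0.607 to 0.992 in abc.del, 0.753 to 0.972 in ab.del and 0.629 to 0.992 in c.del, with standard errors of 0.18 for Mtf2 to 0.65 for Phf19. Differences of the size of those standard errors were therefore not detectable here. Larger ones could be missed too: Jarid2, at -0.62 with an SE of 0.20 in abc.del, did not pass. The median difference of the 9 members was 0.15, -0.04 and -0.08 in the 3 groups in that order, and 0.04, 0.08 and 0.09 over all tested genes.

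**Figure D3:**
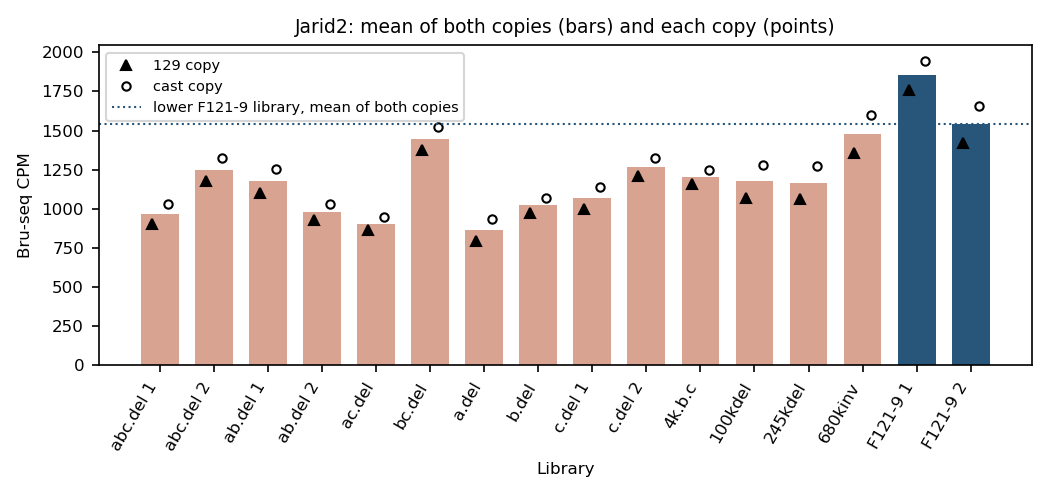
Jarid2 in each library as CPM: bars give the mean of both copies, triangles the 129 copy and circles the cast copy, and the dotted line is the lower of the 2 F121-9 libraries. The 14 edited libraries run from 866 to 1478 CPM and the F121-9 libraries stand at 1854 and 1539 CPM, with the 129 copy below the cast copy in every library.

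Over all edited groups, Jarid2 ran from 866 CPM in a.del through a median of 1170.1 to 1478 CPM in 680kinv, against 1854 and 1539 CPM in F121-9. Mean values were 1141 ± 186 CPM (SD, n = 14) and 1697 ± 222 CPM (n = 2). The same order held on each copy: the highest edited 129 value was 1373 CPM against 1422 CPM in the lower F121-9 library, and the highest edited cast value was 1599 CPM against 1657 CPM. Of all tested genes, 0.745% had every edited library below both F121-9 libraries and 2.43% had every one above; Jarid2 was the only member of the first set, and no member was in the second. For Mtf2, 13 of 14 edited libraries were below both, an order whose share over all tested genes was not counted. A limma comparison of the 14 libraries with the 2 was chosen after these values were seen. It gave -0.58 for Jarid2 (SE 0.17, adjusted p = 0.562) and -0.29 for Mtf2 (SE 0.18, adjusted p = 0.587). It called 0% of all tested genes and 0 of 9 members, and edgeR and DESeq2 called no member either. Of the 9, Jarid2 alone was under an unadjusted p of 0.05, against 8.81% of all tested genes. Within the first block, which holds 6 edited and both F121-9 libraries, the Jarid2 difference was -0.47 (adjusted p = 0.436). Gene width moved with the same contrast: among genes of at least 50 CPM the median difference was 0.32 for 225 genes under 20 kb and -0.09 for 266 genes of 150 to 250 kb, the class of Jarid2, in which 3 genes had all edited libraries below F121-9. With the 6 edited libraries of the first block alone these medians were 0.18 and -0.02. Its part in the Jarid2 values was not tested.

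When the 12 lettered libraries were fitted with an additive term per site, 0 of 9 members were called for site a, site b or site c, against 0.0142%, 0% and 0% of all tested genes. Jarid2 ran from 866 through 973 to 1249.7 CPM in the 6 libraries that name site a, against 1021 through 1357 to 1854 CPM in the 6 others, 2 of them F121-9. The groups overlapped, and its site a term was -0.41 (SE 0.17, limma adjusted p = 0.523). Phf19 ran from 0.777 through 1.04 to 1.77 CPM with site a named, against 0 through 0.660 to 1.45 CPM without it, and its term of 1.30 (SE 0.56, adjusted p = 0.539) did not pass either. At an unadjusted p of 0.05, 2 of 9 members, Jarid2 and Phf19, passed for site a, against 8.84% of all tested genes. For sites b and c 0 members passed, against 5.09% and 3.26% of genes. By edgeR and DESeq2 no member was called for any of the 3 sites.

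Groups with 1 library have no error, and their values were set against the mean of the 2 F121-9 libraries with a fold of 1.5 as the mark. In a.del 4 of 9 members were past it, Suz12 (271 CPM), Mtf2 (256 CPM), Jarid2 (866 CPM) and Ezh1 (8.77 CPM), all lower, against 51.4% of all tested genes. In b.del 4 were past it against 47.3% of genes, with Eed higher (287 CPM) and Ezh1 (5.44 CPM), Jarid2 (1021 CPM) and Phf19 lower. Phf19 had 0 reads in b.del, at least 3.37-fold lower than the F121-9 mean by a floor of 3 reads per copy. In 4k.b.c 3 were past it against 49.4% of genes, Eed higher, and Ezh1 (7.06 CPM) and Suz12 (372 CPM) lower. In bc.del 2 were past it against 36.9%, Ezh1 (7.45 CPM) and Phf19 (0.336 CPM), both lower, and in ac.del 1 against 42.7%, Jarid2 (905 CPM). In 680kinv 1 was past it against 20.6% of genes, Phf19 with 2.30 CPM, higher. In 100kdel and 245kdel 0 were past it, against 36.3% and 37.7% of genes. Counting lower values alone, 4 of 9 members were past the mark in a.del against 19.6% of genes, 3 in b.del against 25%, 2 in bc.del against 23.8%, 2 in 4k.b.c against 17.8% and 1 in ac.del against 16.6%. In 100kdel, 245kdel and 680kinv 0 members were lower by that fold, against 7.87%, 7.73% and 9.51% of genes. Ezh2 was past the mark in none of the 8 libraries.

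Eed in 4k.b.c was the highest value of that gene, 369 CPM against 183 and 162 CPM in F121-9, a difference of 1.10 on the log2 scale. Its cast copy gave 529 CPM in 4k.b.c, against 229 and 203 CPM in F121-9, and its 129 copy gave 209 CPM, against 137 and 120.98 CPM. Chromosome 7 as a whole, where Eed lies, moved in this library. Over 852 genes of chromosome 7 the median difference between 4k.b.c and F121-9 was 0.73, or 1.10 for cast and 0.22 for 129 copies, and the median 129 share was 35.0%. The median share on each member's chromosome in all other cases was between 48.4% and 51.9%. The part of the chromosome in the Eed value was not tested.

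Libraries also differed between the deposit blocks, and this difference, unlike that between groups, reached some members. In the 12 lettered libraries, with terms for sites a, b and c, 4 of 9 members were called, 1 higher and 3 lower in the second block, against 24.6% of all tested genes. Eed rose by 0.38 (SE 0.09, adjusted p = 0.00764), with 204 to 287 CPM in the 5 second-block libraries and 162 to 230.4 CPM in the 7 first-block libraries. Suz12 fell by 0.48 (SE 0.13, adjusted p = 0.0167), with 271 to 447 CPM against 456 to 678 CPM. Rbbp4 fell by 0.32 (SE 0.09, adjusted p = 0.0233), with 67.1 to 82.8 CPM against 85.6 to 106 CPM. Ezh1 fell by 0.83 (SE 0.24, adjusted p = 0.0264), with 5.44 to 11.5 CPM against 7.45 to 19.5 CPM, which overlapped. Jarid2 differed by -0.36 (adjusted p = 0.0705) and Phf19 by -0.97 (adjusted p = 0.180), and neither passed. Phf19 passed without the second c.del library (-1.60, adjusted p = 0.0357) and gave -0.14 without b.del, where it had 0 reads.

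**Figure D4:**
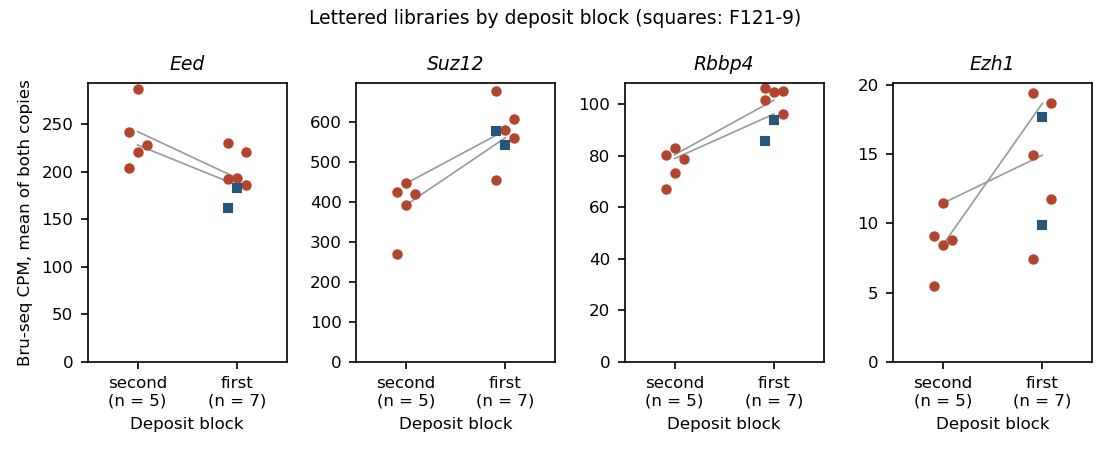
CPM (mean of both copies) of Eed, Suz12, Rbbp4 and Ezh1 in the lettered libraries by deposit block, second block (5 libraries) at the left and first block (7 libraries) at the right of each panel; squares are F121-9 and grey lines join the 2 libraries of ab.del and of c.del. Eed is higher and the other 3 are lower in the second-block library of both pairs, which are part of the fit that called these genes.

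Within the 2 groups that have a library in each block the 4 genes moved the same way. These libraries are part of the fit that called the 4 genes, so this is not a separate check. Eed gave 228 CPM in the second-block and 186 CPM in the first-block library of ab.del, and 242 and 193 CPM in c.del. For Suz12 these values were 393 and 562 CPM in ab.del and 447 and 580.3 CPM in c.del, for Rbbp4 78.9 and 96.2 CPM and 80.4 and 102 CPM, and for Ezh1 8.47 and 18.7 CPM and 11.5 and 14.9 CPM. In the 4 libraries outside this fit, Suz12 gave 372, 404.5 and 402 CPM in 4k.b.c, 100kdel and 245kdel of the second block, against 555 CPM in 680kinv of the first. Rbbp4 gave 67.3, 81.0 and 81.1 against 87.7 CPM, and Ezh1 gave 7.06, 14.4 and 12.2 against 19.3 CPM. All 3 genes were lower than in 680kinv, but this rests on 1 first-block library, and the 4 libraries carry different edits. Eed gave 369, 149 and 151 against 165 CPM, higher in 4k.b.c alone. The count of 4 rests on few libraries: 0 members were called without b.del, 1 without the first and 2 without the second ab.del library. Leaving out b.del ended the call of each of the 4 with little change in size: the differences were then -0.77 for Ezh1, -0.47 for Suz12, -0.32 for Rbbp4 and 0.33 for Eed, with adjusted p of 0.0635 to 0.113. Ezh1 was also lost without abc.del 1, either ab.del library, ac.del or F121-9 2, Suz12 without ab.del 1, and Rbbp4 without either ab.del library or F121-9 1, whereas Jarid2 passed without either c.del library. All tested genes had a median of 0.15 in this contrast, and after each library was centred on its median Eed differed by only 0.10 (adjusted p = 0.560), while Jarid2 passed with -0.63 on the log2 scale. By edgeR and by DESeq2 the count was also 4, but Eed did not pass with either. Jarid2 passed with both, at -0.52 (edgeR, adjusted p = 0.015) and -0.53 (DESeq2, adjusted p = 0.00221). Pluripotency markers moved with the same contrast, 5 of 8 higher and 0 lower in the second block; their part was not tested. What the block stands for cannot be told apart from the groups present in 1 block only.

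The comparison of the 129 with the cast copy is made within each library, so that library differences that act on both copies alike cancel. Values of 6 of 9 members differed between the copies over the 16 libraries, against 44% of 13310 genes tested, a share in which a count of 6 does not set the members apart. Whether reads of 1 copy aligned more readily than those of the other was not tested. Ezh1 had the most uneven copies among the called members: its 129 copy gave 16.1 ± 6.07 CPM and its cast copy 8.39 ± 3.53 CPM (SD, n = 16), and the 129 share ran from 56.5% through 65.7% to 73.1%. The limma difference was 0.96 (SE 0.07, adjusted p = 1.4e-08), with 129 higher in 16 of 16 libraries. Mtf2 also favoured 129, with 458 ± 76.8 CPM from 129 and 377 ± 61.9 CPM from cast, a share of 52.1% to 57.7% (median 54.6%), higher in 16 of 16 libraries. Its difference was 0.28 (SE 0.03, adjusted p = 1.06e-06).

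Eed, Rbbp4, Jarid2 and Ezh2 favoured cast. The 129 copy of Eed gave 163 ± 35.0 CPM and the cast copy 259.7 ± 83.6 CPM, with a 129 share of 28.3% to 45.3% (median 39.2%), lower in 16 of 16 libraries, and a difference of -0.65 (SE 0.06, adjusted p = 1.49e-07). The lowest share was that of 4k.b.c, and the other 15 libraries lay between 36.5% and 45.3%. Rbbp4 gave 78.4 ± 12.1 CPM from 129 and 95.8 ± 15.04 CPM from cast, with 129 lower in 16 of 16 libraries and a difference of -0.29 (SE 0.04, adjusted p = 8.61e-06). Jarid2 gave 1134 ± 249 CPM from 129 and 1287 ± 279 CPM from cast, and its 129 share was narrow, 45.4% to 48.1%. This small difference of -0.18 (SE 0.03, adjusted p = 1.43e-05) was seen in 16 of 16 libraries. It rests on the scaling of each copy to its own total: by reads alone the 129 share of Jarid2 was 48.0% to 51.0%, above 50% in 2 libraries. Ezh2 gave 239 ± 27.05 and 265 ± 26.6 CPM, with 129 lower in 15 of 16 libraries and a difference of -0.15 (SE 0.03, adjusted p = 0.000308). Its size also depends on that scaling: by reads alone the 129 share of Ezh2 was 47.4% to 52.6%, above 50% in 2 libraries.

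The copies of Suz12 and Aebp2 differed by less than the test could call: -0.02 (SE 0.03, adjusted p = 0.675) for Suz12, whose 129 share was 47.2% to 54.1% (129 higher in 5 libraries by CPM and in 15 by reads), and -0.06 (SE 0.05, adjusted p = 0.282) for Aebp2. For Aebp2 the blocks disagreed in sign, with -0.16 ± 0.08 in the second and 0.04 ± 0.17 in the first (SD, n = 8 each). For the 6 called members the sign was the same in both blocks. Phf19, with 0 to 86 reads per library, differed by -0.55 (SE 0.27, adjusted p = 0.115), and without bc.del, where its 8 reads all came from 129, it passed with -0.78 (adjusted p = 0.000908). In F121-9 alone the 129 share was 56.5% and 63.9% for Ezh1, 37.5% and 37.4% for Eed and 53.5% and 55.7% for Mtf2. It was 44.3% and 42.7% for Rbbp4, 47.5% and 46.2% for Jarid2 and 50.02% and 46.6% for Ezh2, so the imbalance by CPM was present in both unedited libraries for 5 of the 6 called members and in 1 of them for Ezh2.

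**Figure D5:**
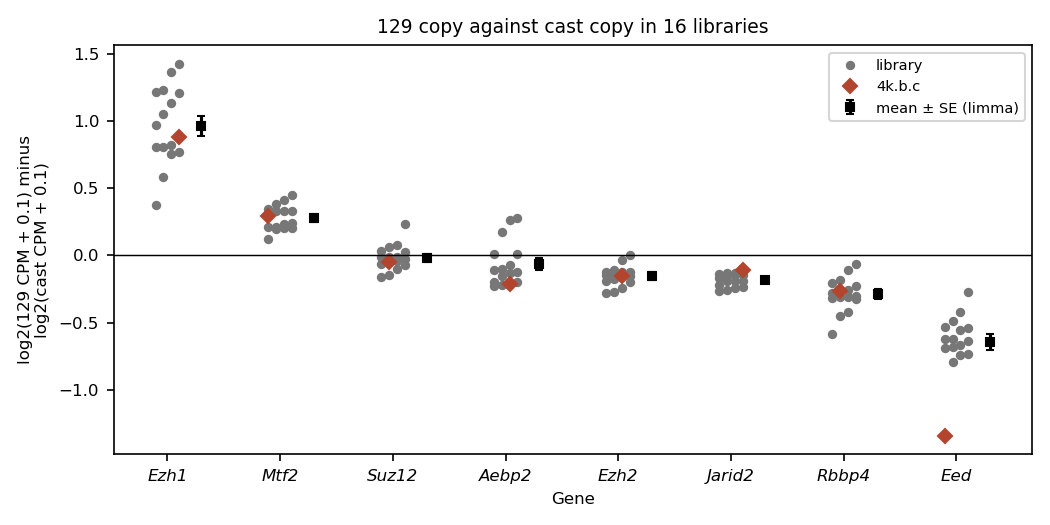
log2(129 CPM + 0.1) minus log2(cast CPM + 0.1) for 8 PRC2 genes, 1 point per library with 4k.b.c as a diamond, and the mean ± SE of limma over 16 libraries as a square; Phf19, with few reads, is left out. Ezh1 and Mtf2 lie above 0 and Jarid2, Rbbp4 and Eed below 0 in all 16 libraries, and 4k.b.c is the lowest point of Eed.

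Genes that work with or against PRC2 were followed from lists, and some lie on X, of which 11 edited libraries had reads of mostly 1 copy. In the 10 libraries with deleted lettered sites and in 4k.b.c the lower copy gave 0.167% to 12.4% of the CPM of 384 X genes (129 lower in 8 of them and cast in 3), against 47.1% to 49.9% in 100kdel, 245kdel, 680kinv and both F121-9 libraries. Of 6 other accessory genes 0 were called in abc.del, ab.del or c.del; Rbbp7, a close relative of Rbbp4 that lies on X, gave 66.7 and 58.0 CPM in the abc.del libraries, and 95.4 and 100.2 CPM in those of F121-9 (-0.65, SE 0.21, adjusted p = 0.304). Its 129 copy gave 0.148 and 0.632 CPM in the 2 abc.del libraries, against 76.2 and 89.8 CPM in the F121-9 pair, while its cast copy gave 133 and 115 CPM, against 114 and 111 CPM, so the cast copy was not lower. Of 27 tested genes of PRC1, the complex that binds the PRC2 mark and ubiquitinates histone H2A, 1 fell and 0 rose in each of the 3 groups. That gene was Scml2 on X, with 3.598 and 3.47 CPM in the abc.del libraries, and 117 and 171 CPM in those of F121-9, and -5.29 (SE 0.33, adjusted p = 0.000621). Here the cast copy was lower too, with 7.15 and 6.89 CPM in the 2 abc.del libraries, against 137 and 190 CPM in the F121-9 pair. Yaf2, a PRC1 subunit on chromosome 15, gave 9.22 and 9.16 CPM in the abc.del libraries, and 22.2 and 33.3 CPM in those of F121-9, and did not pass (-1.55, SE 0.31, adjusted p = 0.108). Auts2 and Bcorl1 had adjusted p of at least 0.233 in the 3 groups.

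Of 7 genes that remove the Polycomb marks 0 were called in the 3 groups. Kdm6a, a demethylase of H3K27 on X, gave 265.50 and 265.53 CPM in the abc.del libraries, and 491 and 408 CPM in those of F121-9 (-0.75, SE 0.18, adjusted p = 0.187). Its 129 copy gave 0.542 and 1.49 CPM in the 2 abc.del libraries, against 451 and 391 CPM in the F121-9 pair, and its cast copy 530.5 and 529.6 CPM, against 532 and 426 CPM, so that the lower mean lay in the 129 copy. Of 12 Trithorax and COMPASS genes, which place the opposing H3K4 mark, 0 were called; Ash2l had the smallest p and differed by 0.41 (SE 0.17, adjusted p = 0.454) in abc.del. Of 30 developmental genes known to carry the PRC2 mark in embryonic stem cells, 12 reached the filter and 0 of these were called. The median of the mean levels of the 30 was 0.0748 CPM and the highest was Cdkn2a with 14.2 CPM. Pax2 differed by -2.52 in abc.del (SE 0.61, adjusted p = 0.183). It ran from 0 to 1.98 CPM (median 0.622) over the 16 libraries, so this size rests on few reads. Between blocks, 6 of 27 PRC1 genes, 5 of 12 Trithorax and COMPASS genes, 1 of 7 genes that remove the marks, 3 of 12 developmental genes and 0 of 6 other accessory genes were called, against 24.6% of all tested genes. In PRC1, 3 genes rose in the second block relative to the first, Bcor by 0.80, Phc2 by 0.56 and E2f6 by 0.50 on the log2 scale. Another 3 fell, Rybp by 0.50, Mga by 0.39 and Rnf2, a ubiquitin ligase of PRC1, by 0.33. Of the Trithorax list, 4 methyltransferase genes rose, Kmt2b by 1.09, Setd1b by 0.91, Kmt2d by 0.78 and Setd1a by 0.69, and Kmt2c fell by 0.53. The deubiquitinase gene Bap1 rose by 0.76, as did the developmental genes T by 2.47 and Pax6 by 1.98, while Cdkn2a fell by 0.59. T ran from 0 to 1.17 CPM (median 0.205) over the 16 libraries, where 3 reads are 0.0833 to 0.329 CPM. Its size therefore rests on few reads and on the added 0.1 CPM. Adjusted p of these limma calls was at most 0.0447.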

How the data were processed

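Bru-seq of 16 libraries was deposited as 1 table with 32 value columns. The submitters' processing notes name Bowtie2, bedtools and the mm10 build, with no versions. Clipping, a minimum mapping quality of 10 and a split of reads by homozygous variants are recorded per the file headers, and the reference copy was taken as 129. The unit of the deposited values is CPM, since each column sums to 1000000 over its rows; the design assumed RPKM, and the test was kept on the log2 scale. Whole reads could be recovered for 100% of values (within 0.01) and were used for edgeR and DESeq2, and floors of 3 reads cover counting error only.

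The widest row per symbol was used. Two-sided tests with limma 3.58.1 (eBayes with a trend; adjusted p of 0.05 by Benjamini-Hochberg over all tested genes) were run on log2(mean CPM of both copies + 0.1), so folds of low genes are understated, for genes whose mean reached 0.2 CPM. Group fits used the 8 libraries of c.del, ab.del, abc.del and F121-9; the fits of sites and of deposit block used 12 lettered libraries, and the comparison of copies used all 16 libraries and genes of at least 0.2 CPM in each copy. Alternatives were pseudocounts of 0.01 and 1, other filters, median centring, eBayes without trend, autosomes, the narrowest row, each copy alone, other sets of libraries, deposit block as a covariate, edgeR 4.0.16, DESeq2 1.42.0 and leaving out each library. The comparison of the 14 edited libraries with F121-9, and correlations without 4k.b.c, were added after values were seen. Named genes were all members, list genes that passed or else up to 4 with the smallest p over the group comparisons (fewer are named here), and the 3 genes most like Ezh2, Eed and Suz12. The members and lists were chosen with earlier results of these data known. Promoters came from RefSeq (GRCm38.p6). Scripts were tested on simulated counts. R 4.3.3, Python 3.11.15, numpy 2.4.6, pandas 2.3.3, scipy 1.17.1 and matplotlib 3.10.9 were used.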

Additional observations from a re-analysis of the deposited data

How the results depend on the processing

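Across 23 alternatives for each group comparison, 25 for each site and 30 for the 14 edited libraries against F121-9, the number of members called stayed at 0, and Jarid2 kept its sign: -0.81 to -0.43 in abc.del (lowest adjusted p = 0.0686, with only the 2 groups compared), -0.79 to -0.52 in ab.del (lowest 0.175) and -0.68 to -0.40 in c.del (lowest 0.244). For all tested genes the count moved from 31 to between 0 and 671 (671 with deposit block as a covariate) in abc.del, from 7 to between 0 and 202 (likewise) in ab.del and from 7 to between 0 and 224 (with DESeq2) in c.del, from 2 to between 0 and 160 for site a, from 0 to at most 8 for site b, 3 for site c and 63 for the 14 edited libraries. The 4 members called between deposit blocks became 1 with eBayes without trend and 2 on the 129 or the cast copy alone, and 0 to 6 when 1 library was left out; the causes were not tested. For 129 against cast, 6 members were called in 23 of 25 alternatives and 7 with a pseudocount of 1 and without bc.del, and the 6 called members passed in all 25. At a fold of 2, members past the mark were 0 in ac.del against 21% of all tested genes and 1 in bc.del against 19.6%. They were 1 in a.del against 29.4%, 2 in b.del against 26.3% and 1 in 4k.b.c against 26.9%. The remaining libraries gave 0 in 100kdel against 16%, 0 in 245kdel against 17.4% and 1 in 680kinv against 8.85%. On the narrowest row Aebp2 gave 3.15 CPM per kb and its log2 ratio with Jarid2 changed to 1.00; in the F121-9 libraries alone Jarid2 gave 8.89 and Mtf2 11.3 CPM per kb. Of the 3 genes most like Ezh2, 0 remained after median centring. With 2 libraries per group and 1 parental line, and 597 reads for Phf19, small differences could not be resolved.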
